A study of Solanum lycopersicum with 48 samples.

Results

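Roots of the tomato cultivar Guozhen No.1 were compared with roots of the cultivar Guizhen No.1, both grown at normal nitrogen (9 mM) and collected at day 7, with 3 libraries each. These 6 libraries, chosen by their titles, belong to a series of 48 in which both cultivars were grown hydroponically in Hoagland solution at 9 mM or 1 mM nitrogen, and roots and leaves were taken at day 1 and day 7. All plants shared the growth chamber settings, and the 6 root samples had no treatment other than the 9 mM nitrogen solution that the labels mark as the control. The labels do not give the event that starts the count of days or how the cultivars are related. They also do not say whether the 3 replicates are separate plants, so p-values measure only the spread between libraries of a group. For the root comparison, this spread and the SE were estimated over all root groups of the series, not from these 6 libraries alone. The comparison asks which genes differ in root RNA between the cultivars when nitrogen is ample.

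Roots that look alike can differ in RNA because the cultivars carry different alleles, or lack a gene that the other has, and such differences often show in several organs. Commercial tomatoes also often carry disease resistance genes bred in from wild relatives together with neighbouring wild chromosome. Well known examples are Tm-2, a receptor of the nucleotide-binding class that acts against tobamoviruses and lies on chromosome 9, and Mi-1, a receptor of the same class that acts against root-knot nematodes and lies on chromosome 6. The labels do not say whether either cultivar carries one of them. Roots take up nitrate and ammonium through membrane transporters and fix ammonium into glutamine through glutamine synthetase.

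Expression is given as FPKM, a fragment count scaled to the length of the gene model and to the mapped fragments of the library. Differences are means of log2(FPKM + 1) in Guozhen minus Guizhen, a scale that understates the fold of weakly expressed genes. A gene was called at an adjusted p below 0.05 in limma, with Benjamini-Hochberg adjustment over all genes tested. The read depth is unknown, but the spacing of values under 0.15 FPKM gave depths of 2.38 and 0.979 in Guozhen replicates 2 and 3, and of 1.42, 1.04 and 0.914 in Guizhen replicates 1 to 3, relative to Guozhen replicate 1. Guozhen replicate 2 listed 4517 genes at 0, against 5621 to 5986 in the other 5 libraries. These depths are estimates and serve as a description only. Between 18211 and 18477 genes reached 1 FPKM in each library. Replicates correlated at 0.963 to 0.974 within Guozhen and at 0.962 to 0.969 within Guizhen, and libraries of different cultivars at 0.953 to 0.966. The 17 leaf photosynthesis markers summed to 69.1 to 95.2 FPKM in Guozhen roots and to 67.0 to 143 FPKM in Guizhen roots, against 5278 to 106742 FPKM in the 24 leaf libraries, so the libraries match the labelled organ.

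Of 20435 genes tested in root, 189 were called, which is 0.925% of them. RNA was higher in Guozhen roots for 111 and lower for 78. A difference of at least 1 on the log2 scale was reached by 74 of the higher and 43 of the lower genes. The median size of the difference was 1.08 among called genes and 0.153 among all genes tested, and the median signed difference of all genes was -0.01. At an unadjusted p below 0.05, 2307 genes (11.3%) differed. The 6 root libraries did not overlap between the cultivars for 188 of the 189 called genes, as for 18% of all genes tested. In bulk RNA, fewer cells of a type and less RNA per cell cannot be told apart. Without Guozhen replicate 2, the library with the fewest genes at 0, 138 genes were called, and 91 genes (58 higher, 33 lower) were called whichever single library of the 6 was left out.

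Many of the largest differences were close to presence against absence. Solyc09g020190 had 26.8, 33.8 and 33.6 FPKM in Guozhen roots and was listed at 0 in all 3 Guizhen roots. Its log2 difference of 5.01 ± 0.59 (SE, adjusted p = 4.3e-05 in limma) was the largest of the named genes. Solyc09g005520, also on chromosome 9, had 20.14, 22.0 and 25.3 FPKM in Guozhen roots, against 0, 0.807 and 0.0210 FPKM in Guizhen roots. The difference was 4.25 ± 0.44 (adjusted p = 7.7e-06), and every Guozhen value lay far above every Guizhen value. Solyc02g005050 and Solyc05g042140 were likewise listed at 0 in all 3 Guizhen roots. In Guozhen roots, Solyc02g005050 had 6.91, 5.83 and 6.38 FPKM and Solyc05g042140 had 9.20, 3.81 and 6.66 FPKM. Solyc10g085470 had 6.32, 8.88 and 5.13 FPKM in Guozhen roots and a single Guizhen value above 0, of 0.0298 FPKM. Solyc12g038430 was less clear cut, with 8.05, 12.5 and 11.7 FPKM in Guozhen roots but 0, 0.00689 and 3.34 FPKM in Guizhen roots. In all, 29 of the 111 higher genes were listed at 0 in the 3 Guizhen roots and 40 had a Guizhen mean under 0.1 FPKM. These counts were not made over all genes tested, so they describe the called genes only. An exact 0 in FPKM can be a failed estimate, which was not tested.

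The converse pattern, RNA in Guizhen with almost none in Guozhen, was also seen. Solyc02g077940 was listed at 0, 0.0188 and 0 FPKM in Guozhen roots, against 13.5, 10.2 and 12.01 FPKM in Guizhen roots (log2 difference -3.67 ± 0.14, adjusted p = 5.9e-12 in limma). Its neighbour in locus order, Solyc02g077930, had 0, 0.123 and 0 FPKM in Guozhen roots, against 8.52, 6.46 and 6.78 FPKM in Guizhen roots. Both members of the pair were lower in Guozhen. Solyc10g085040 had the most negative difference of the named genes, -3.88 ± 0.29 (adjusted p = 4.9e-08), with 0.113, 0.0485 and 0.0268 FPKM in Guozhen roots, against 16.1, 15.9 and 12.4 FPKM in Guizhen roots. Of the 78 lower genes, 4 were listed at 0 in the 3 Guozhen roots and 11 had a Guozhen mean under 0.1 FPKM. These counts too were made for called genes only. Guozhen replicate 2 had the highest estimated depth (2.38) and the fewest genes at 0, so zeros in the 2 cultivars are not counted on equal terms. For Solyc02g077940 and Solyc02g077930 it was the only Guozhen root above 0.

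Other large differences were of level, with clear RNA in both cultivars. Solyc09g011650 had 134, 131 and 137 FPKM in Guozhen roots, against 14.6, 21.2 and 22.2 FPKM in Guizhen roots (log2 difference 2.75 ± 0.20, adjusted p = 4.0e-08 in limma). Solyc01g095200 had 101, 115 and 123 FPKM in Guozhen roots, against 17.67, 21.58 and 23.2 FPKM in Guizhen roots. Solyc09g059020 had 32.0, 51.8 and 39.1 FPKM in Guozhen roots, against 5.26, 10.3 and 8.11 FPKM in Guizhen roots. In each of these the lowest of the 3 Guozhen roots was above the highest of the 3 Guizhen roots. Solyc09g011760 went the other way, with 37.6, 30.3 and 33.2 FPKM in Guozhen roots, against 165, 170 and 168 FPKM in Guizhen roots (-2.29 ± 0.13, adjusted p = 1.8e-09). Solyc06g008520 had 7.98, 10.2 and 6.48 FPKM in Guozhen roots, against 44.5, 60.4 and 47.6 FPKM in Guizhen roots (-2.50 ± 0.18, adjusted p = 3.7e-08). Its values in the cultivars did not come near each other. The 10 largest in each direction were taken among called loci with a higher group mean of at least 5 FPKM and no overlap. The rest of them were Solyc09g005410 (2.58), and on the negative side Solyc09g011640 (-2.38), Solyc06g008810 (-1.97), Solyc09g090990 (-1.76), Solyc06g008400 (-1.72) and Solyc07g055690 (-1.70). Over the 12 root libraries of each cultivar in the series, Solyc01g095200 had 86.2 to 123 FPKM in Guozhen. In Guizhen it had a median of 19.8 FPKM but a highest value of 112 FPKM. In the 12 Guizhen leaf libraries its median was 13.1 FPKM and its highest value 114 FPKM. The call of Solyc01g095200 was lost without Guozhen replicate 3 (adjusted p = 0.0547) or Guizhen replicate 1 (0.0575). That of Solyc09g090990 was lost without any one of Guozhen replicates 1 and 2 and Guizhen replicates 1 and 2 (0.0743 to 0.146), and that of Solyc07g055690 without any one library except Guozhen replicate 1 (0.0539 to 0.0932). The call of Solyc09g005410 was lost with a pseudocount of 0.1 (adjusted p = 0.0635), as was that of Solyc09g011640 (0.156). With only the 6 libraries in the fit, Solyc12g038430 (0.164), Solyc09g005410 (0.148) and Solyc09g090990 (0.174) were not called.

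**Figure D1:**
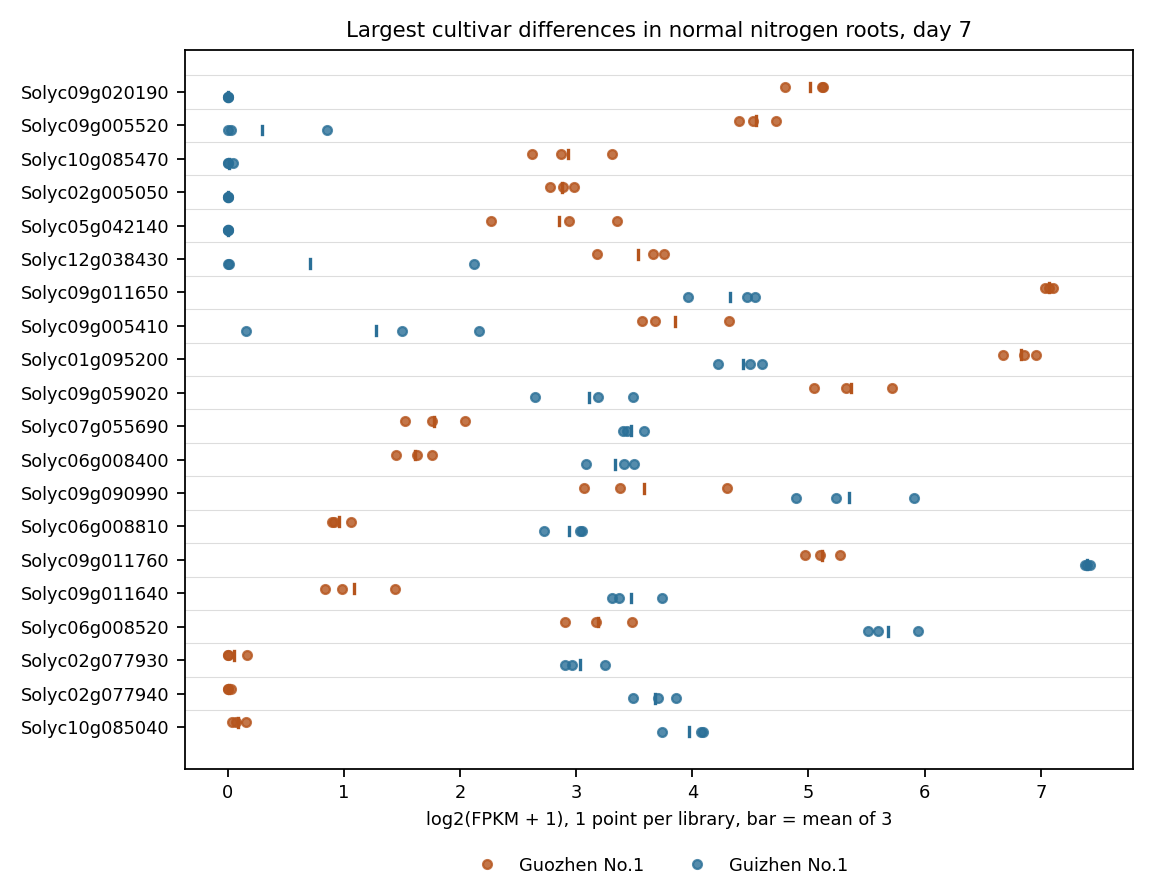
Values of the 10 genes most higher and the 10 most lower in Guozhen, as log2(FPKM + 1) on the horizontal axis. The genes were taken among called loci with a higher group mean of at least 5 FPKM and no overlap between cultivars. Each library is 1 point, with a bar at the mean of 3. Guozhen No.1 is drawn in brown above Guizhen No.1 in blue, and the points of the cultivars do not overlap for any of the 20 genes, which the choice of genes required.

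Among called genes 103 had a higher group mean of at least 5 FPKM, and 8 reached 100 FPKM. The 5 of these not yet described were chosen after their values were seen. Solyc06g073300, the most abundant, had 427, 304 and 327 FPKM in Guozhen roots, against 887, 677 and 619 FPKM in Guizhen roots (log2 difference -1.04 ± 0.20, adjusted p = 0.00929 in limma). Solyc09g057650 had 105, 91.4 and 112 FPKM in Guozhen roots, against 210, 202 and 220 FPKM in Guizhen roots (-1.03 ± 0.13, adjusted p = 1.1e-04). Both were thus lower in Guozhen by a similar margin, with less spread between replicates in the second. Solyc08g078950 had 127, 82.8 and 94.1 FPKM in Guozhen roots, against 29.8, 23.0 and 29.2 FPKM in Guizhen roots (1.84 ± 0.37, adjusted p = 0.0145). Solyc01g107540 (0.91) and Solyc09g010520 (-0.33) showed smaller differences. Of these, Solyc01g107540 lost its call without any single library except Guizhen replicate 2 (adjusted p = 0.0888 to 0.219) and Solyc09g010520 without any except Guizhen replicate 3 (0.0680 to 0.140). Solyc06g073300 lost its call without Guozhen replicate 2 (0.0634), Guozhen replicate 3 (0.0518) or Guizhen replicate 1 (0.0637), and Solyc08g078950 without Guozhen replicate 1 (0.0672) or Guizhen replicate 2 (0.0736).

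The called loci were unevenly placed along the chromosomes. A tomato locus number gives the chromosome and the order along it, and 157 called loci could be placed in this way. Chromosome 9 held 46 called loci among 1446 tested (3.18%), with 26 higher and 20 lower in Guozhen. Chromosome 6 held 26 among 1752 (1.48%), with 13 in each direction. On the other 10 chromosomes the share ran from 0.243% on chromosome 4 to 0.69% on chromosome 10. Chromosomes 6 and 9 together thus held 45.9% of the placed called loci and 16.2% of the tested ones. The share of chromosomes 6 and 9 among all called genes was 38.1%, and it lay between 32.5% and 42.4% under every alternative setting.

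**Figure D2:**
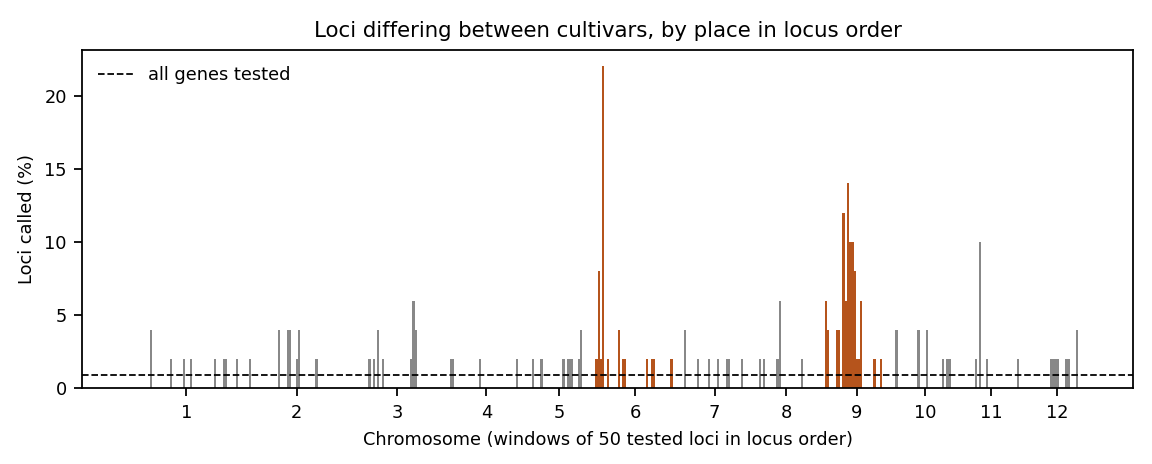
Share of loci called (%) in successive windows of 50 tested loci, ordered by locus number along each chromosome, with chromosomes 6 and 9 in brown and the share over all genes tested as a dashed line at 0.925%. The highest bar is the window on chromosome 6 at 22%, and a run of raised bars covers the first and middle loci of chromosome 9.

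Within these chromosomes the called loci were concentrated further. Of 389 windows of 50 successive tested loci, 299 held no called locus and 13 held at least 3, of which 8 were on chromosome 9 and 2 on chromosome 6. The window from Solyc06g008200 to Solyc06g008940 held 11 called loci (22%), 4 higher and 7 lower in Guozhen. On chromosome 9 the window from Solyc09g014940 to Solyc09g018630 held 7 (14%) and that from Solyc09g011360 to Solyc09g011990 held 6 (12%). The median size of the difference over all 50 loci was 0.309, 0.278 and 0.396 in these windows, against 0.153 over all genes tested. The first 800 tested loci of chromosome 9 held 41 of its 46 called loci and the remaining 646 held 5. Both directions occurred side by side. Outside these chromosomes, the window with the highest share ran from Solyc11g011500 to Solyc11g012220 and held 5 called loci (10%).

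The windows held genes of very different level. In the chromosome 6 window, Solyc06g008520, Solyc06g008810 and Solyc06g008400 had the largest differences among genes of at least 5 FPKM, all lower in Guozhen. Solyc06g008810 had 0.864, 0.890 and 1.09 FPKM in Guozhen roots, against 5.61, 7.27 and 7.18 FPKM in Guizhen roots. Solyc06g008820, next to it in locus order, was higher in Guozhen, with 7.203, 5.37 and 5.83 FPKM in Guozhen roots, against 1.999, 2.37 and 1.79 FPKM in Guizhen roots. These neighbours therefore went in opposite directions. On chromosome 9 the same was seen for Solyc09g011640 and Solyc09g011650. Solyc09g011640 had 1.71, 0.783 and 0.974 FPKM in Guozhen roots, against 9.30, 12.3 and 8.91 FPKM in Guizhen roots. In the chromosome 9 window with 7 called loci, Solyc09g015450 had 4.15, 5.17 and 3.55 FPKM in Guozhen roots, against 10.8, 14.4 and 12.9 FPKM in Guizhen roots. Solyc09g015700 (-1.10) and Solyc09g018160 (0.53) differed less. The call of Solyc09g015700 was lost without Guozhen replicate 1 or 2 or Guizhen replicate 2 or 3 (adjusted p = 0.0726 to 0.141) and that of Solyc09g018160 without any single library except Guizhen replicate 1 (0.0775 to 0.208).

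**Figure D3:**
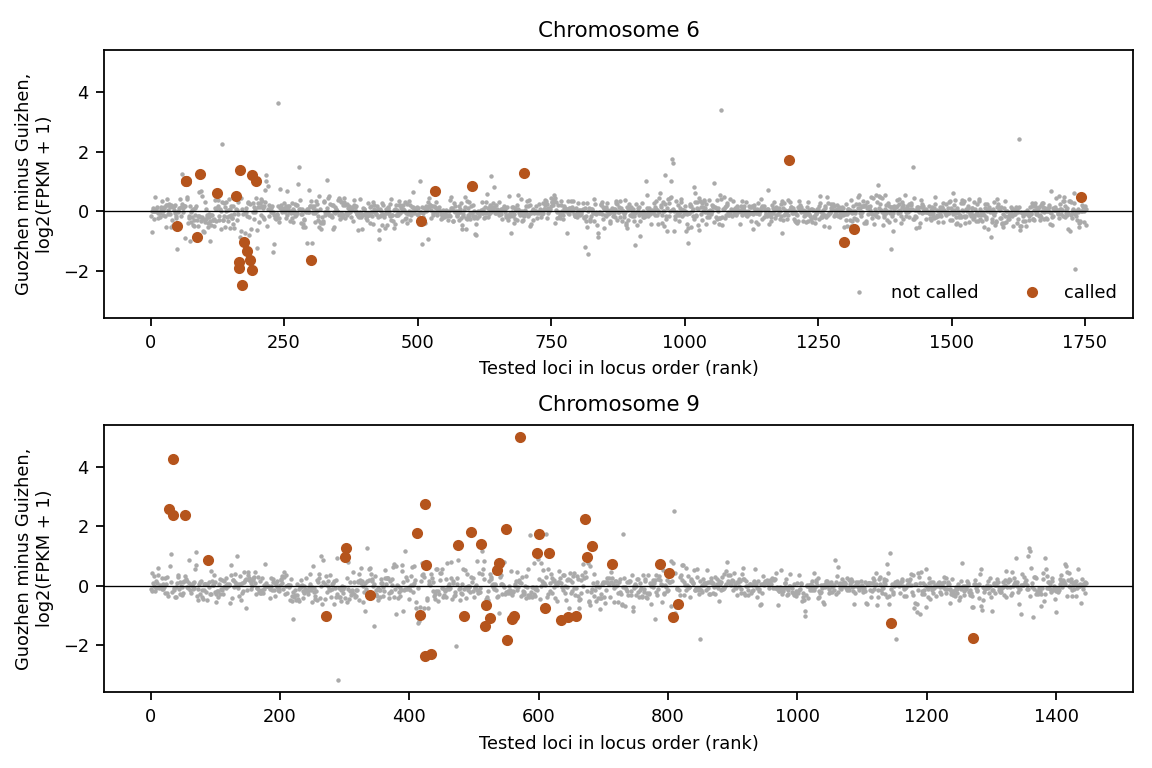
Difference between cultivars, Guozhen minus Guizhen on the log2(FPKM + 1) scale, against the rank of each tested locus in locus order on chromosome 6 (above) and chromosome 9 (below), with called loci in brown and loci not called in grey. Called loci of both directions gather in a narrow stretch near the start of chromosome 6, while those of chromosome 9 spread over its first and middle loci.

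Called loci that stood next to each other in the order of tested loci made 13 pairs, 10 with the same direction and 3 with opposite directions. Successive loci on chromosome 11, Solyc11g011670, Solyc11g011680 and Solyc11g011690, were all listed at 0 in the 3 Guizhen roots. In Guozhen roots Solyc11g011690 had 3.32, 3.81 and 4.48 FPKM, Solyc11g011680 had 1.86, 4.03 and 3.30 FPKM, and Solyc11g011670 had 1.01, 2.56 and 3.30 FPKM. The pair Solyc11g011590 (-1.07) and Solyc11g011600 (-0.88), a short way before them, was lower in Guozhen. Their calls were lost without most single libraries (adjusted p = 0.0571 to 0.208 for Solyc11g011590 without any except Guozhen replicate 3, and 0.0741 to 0.173 for Solyc11g011600 without any except Guizhen replicate 1). The third pair of opposite direction was Solyc05g054710 (0.61) and Solyc05g054720 (-0.55), and the call of Solyc05g054710 was lost without Guozhen replicate 1 or 2 or Guizhen replicate 2 or 3 (0.0900 to 0.214). Neighbouring genes whose models overlap or resemble each other can share reads, and the counting used by the authors is not given in the sources used here.

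Among 12 disease resistance loci, named as in RefSeq where the symbol lay at the matching place, 11 were listed in the table, 9 were tested and 1 was called. This was tm-2 (Solyc09g018220), the locus of the tobamovirus resistance gene, which lies in the chromosome 9 window with 7 called loci. It had 2.55, 2.87 and 3.07 FPKM in Guozhen roots, against 0.997, 1.65 and 1.24 FPKM in Guizhen roots, and the log2 difference was 0.75 ± 0.15 (adjusted p = 0.0149 in limma). The levels are low and the call was lost without Guozhen replicate 2 (0.0634), Guozhen replicate 3 (0.0805), Guizhen replicate 1 (0.0851) or Guizhen replicate 3 (0.0617), and with only the 6 libraries (0.155). Over the 12 root libraries of each cultivar, tm-2 ranged from 1.67 to 3.12 FPKM in Guozhen, with a median of 2.66, and from 0.794 to 1.78 FPKM in Guizhen, with a median of 0.984. A member of the Mi-1 gene family (Solyc06g008450, Mi-1G in RefSeq), in the chromosome 6 window with 11 called loci, had 8.86, 3.71 and 5.36 FPKM in Guozhen roots, against 12.5, 11.9 and 9.28 FPKM in Guizhen roots. The libraries did not overlap, but the difference of -0.86 ± 0.28 did not pass (adjusted p = 0.201). Ve1 and Ve2, a pair of receptor genes at the locus of Verticillium wilt resistance on chromosome 9, differed by 0.31 ± 0.21 and -0.02 ± 0.20. Pto and fen, kinase genes of the bacterial speck resistance cluster on chromosome 5, differed by 0.10 ± 0.14 and -0.14 ± 0.11, and none of these 4 passed.

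None of the 15 tested loci of nitrogen transport and assimilation, of 18 in the list, was called, and 1 had an unadjusted p below 0.05. Their median difference was 0.05, against -0.01 for all genes tested. That locus was GS1 (Solyc11g011380), a glutamine synthetase, which had 686, 708 and 562 FPKM in Guozhen roots, against 387, 424 and 371 FPKM in Guizhen roots. All Guozhen values lay above all Guizhen values, and the difference was 0.72 ± 0.22 (adjusted p = 0.171 in limma). The ammonium transporter AMT1-1 (Solyc09g090730) had 73.0, 73.1 and 53.6 FPKM in Guozhen roots, against 44.01, 37.7 and 33.6 FPKM in Guizhen roots (0.77 ± 0.38, adjusted p = 0.465). AMT1-2 (Solyc04g050440), another ammonium transporter, had 56.6, 51.5 and 37.2 FPKM in Guozhen roots, against 93.8, 52.0 and 90.6 FPKM in Guizhen roots (-0.66 ± 0.37, adjusted p = 0.523), and its libraries overlapped. Another glutamine synthetase gene, gts1 (Solyc04g014510), had 488 to 536 FPKM in Guozhen roots and 337 to 752 FPKM in Guizhen roots. Its difference was -0.09 ± 0.51 (adjusted p = 0.978 in limma). The glutamate dehydrogenase gene gdh1 (Solyc10g078550) had 414 to 506 FPKM in Guozhen roots and 409 to 479 FPKM in Guizhen roots. GS2 (Solyc01g080280), the plastid glutamine synthetase, and AS1 (Solyc06g007180), an asparagine synthetase, differed by 0.19 ± 0.28 and 0.05 ± 0.70. The other 8 tested loci, whose names could not be checked or are not given by symbol here, had differences from -0.52 to 0.36. A p above the threshold does not show that the cultivars were alike for these genes.

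**Figure D4:**
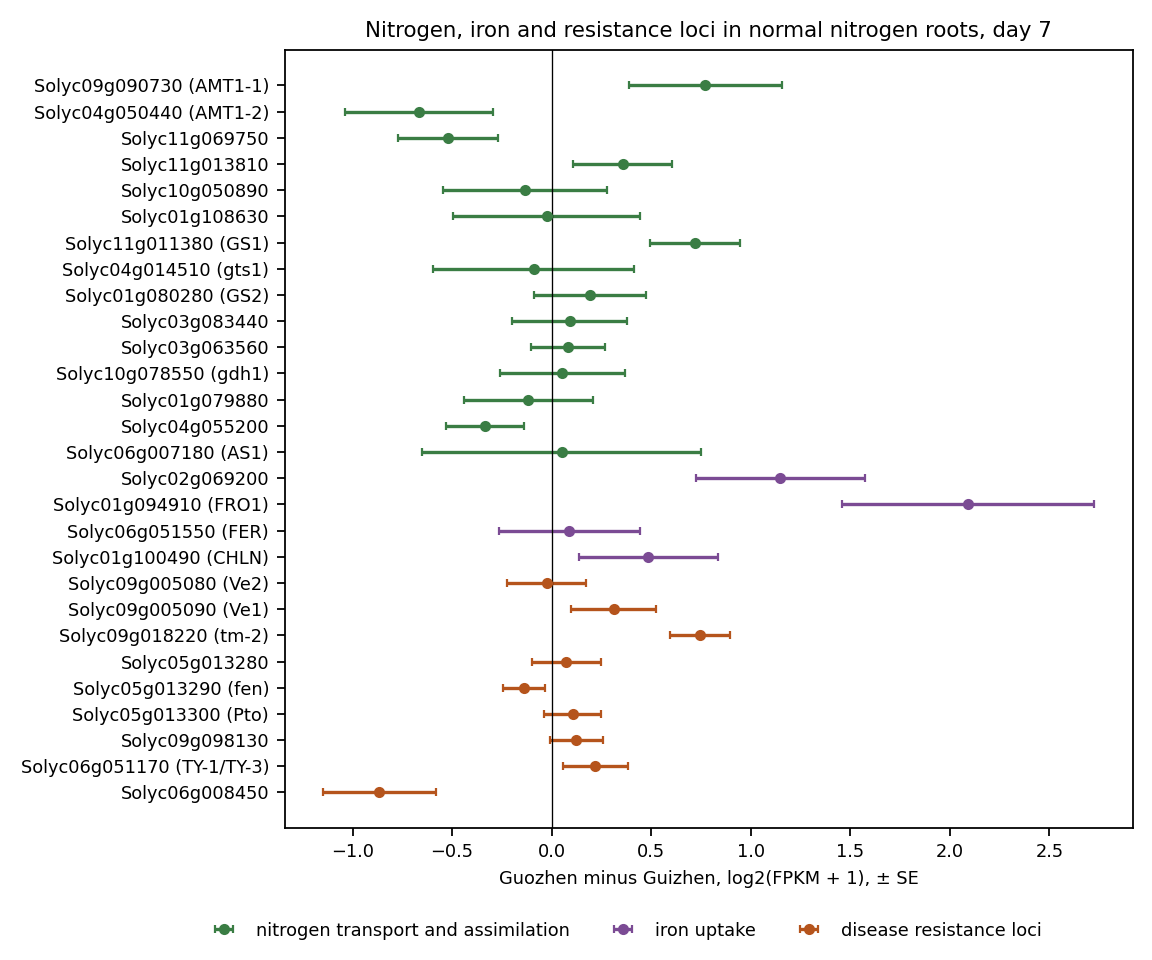
Difference between cultivars for tested loci of nitrogen transport and assimilation, iron uptake and disease resistance, Guozhen minus Guizhen on the log2(FPKM + 1) scale, with points at the estimate and bars of 1 SE. FRO1 lies farthest from 0 at 2.09, while tm-2 at 0.75 is the only called locus. Symbols are shown for loci whose RefSeq place matched.

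Iron uptake genes had the highest median difference of the lists, 0.82 over 4 tested loci, with none called and 2 at an unadjusted p below 0.05. FRO1 (Solyc01g094910), the reductase of ferric iron at the root surface, had 59.7, 21.9 and 42.0 FPKM in Guozhen roots, against 12.02, 2.83 and 14.4 FPKM in Guizhen roots. The lowest Guozhen root was above the highest Guizhen root, but replicates varied widely and the difference of 2.09 ± 0.63 did not pass (adjusted p = 0.155 in limma). Solyc02g069200, whose place in this list could not be checked, had 99.1, 68.4 and 91.2 FPKM in Guozhen roots, against 49.9, 26.3 and 41.4 FPKM in Guizhen roots (1.15 ± 0.42, adjusted p = 0.275). CHLN (Solyc01g100490), the nicotianamine synthase, differed by 0.49 ± 0.35, and FER (Solyc06g051550), the transcription factor that controls iron uptake genes in root, by 0.09 ± 0.35. In the other root groups FRO1 showed no such order: at low nitrogen on day 7 it had 1.68, 9.40 and 28.5 FPKM in Guozhen roots, against 14.6, 7.54 and 3.44 FPKM in Guizhen roots, and at day 1 no root library of the series reached 1 FPKM.

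Hormone and defence lists gave no called locus. All 15 ethylene synthesis and reception loci were tested with none called and a median of 0.03. ACO6 (Solyc02g036350), an enzyme of the last step of ethylene synthesis, had 4.25, 3.63 and 5.53 FPKM in Guozhen roots, against 9.30, 7.33 and 9.08 FPKM in Guizhen roots (-0.81 ± 0.26, adjusted p = 0.185 in limma). Among 7 abscisic acid loci, NCED1, a synthesis enzyme, differed by 0.66 ± 0.24 and CYP707A2, a breakdown enzyme, by 0.77 ± 0.35 (adjusted p = 0.261 and 0.409). Of 9 tested pathogenesis-related loci, PR1a2 (Solyc09g007010) had 0.947, 0.754 and 2.01 FPKM in Guozhen roots and was listed at 0 in the 3 Guizhen roots (1.12 ± 0.33, adjusted p = 0.145). It passed when the pseudocount was 0.1 (adjusted p = 3.9e-04). The remaining lists (phosphate and potassium transport, auxin efflux carriers, flavonoids, strigolactones, gibberellins, jasmonates, the clock, small heat shock proteins and leaf photosynthesis) also held no called locus, with list medians between -0.30 and 0.19. Over all 15 lists, 133 loci were tested and tm-2 was the single call, against 0.925% called among all genes tested.

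The same cultivars were compared in 7 further settings of organ, nitrogen level and day, none of which shares a library with the day 7 roots at normal nitrogen. The root settings share the estimate of spread. Agreement of direction was counted for the 189 genes only, not over all genes tested. Of the 189 genes, 175 had the same direction in roots at normal nitrogen on day 1, 170 in roots at low nitrogen on day 1 and 176 in roots at low nitrogen on day 7. They were called there in the same direction for 95, 79 and 130 genes and in the opposite direction for none. These are 50.3%, 41.8% and 68.8% of the 189 and 29.9%, 50.6% and 4.99% of the 318, 156 and 2605 genes called in those settings. The genes called there are 1.56%, 0.763% and 12.7% of all genes tested. In leaf, 158 of the 189 genes were tested. In leaves at normal nitrogen, 137 had the same direction on day 1 and 141 on day 7, with 73 and 49 called in the same direction. In leaves at low nitrogen, 137 had the same direction on day 1 and 131 on day 7, with 72 and 51 called in the same direction. As shares of the 579, 137, 319 and 325 genes called there, these are 12.6%, 35.8%, 22.6% and 15.7%. Those called there are 2.92%, 0.691%, 1.61% and 1.64% of the 19815 genes tested in leaf. Thus 93 genes were called in the same direction in at least 1 leaf comparison, and 65 that were tested in leaf were not. Neither count was made over all genes tested in leaf, and the shares above are for single settings.

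**Figure D5:**
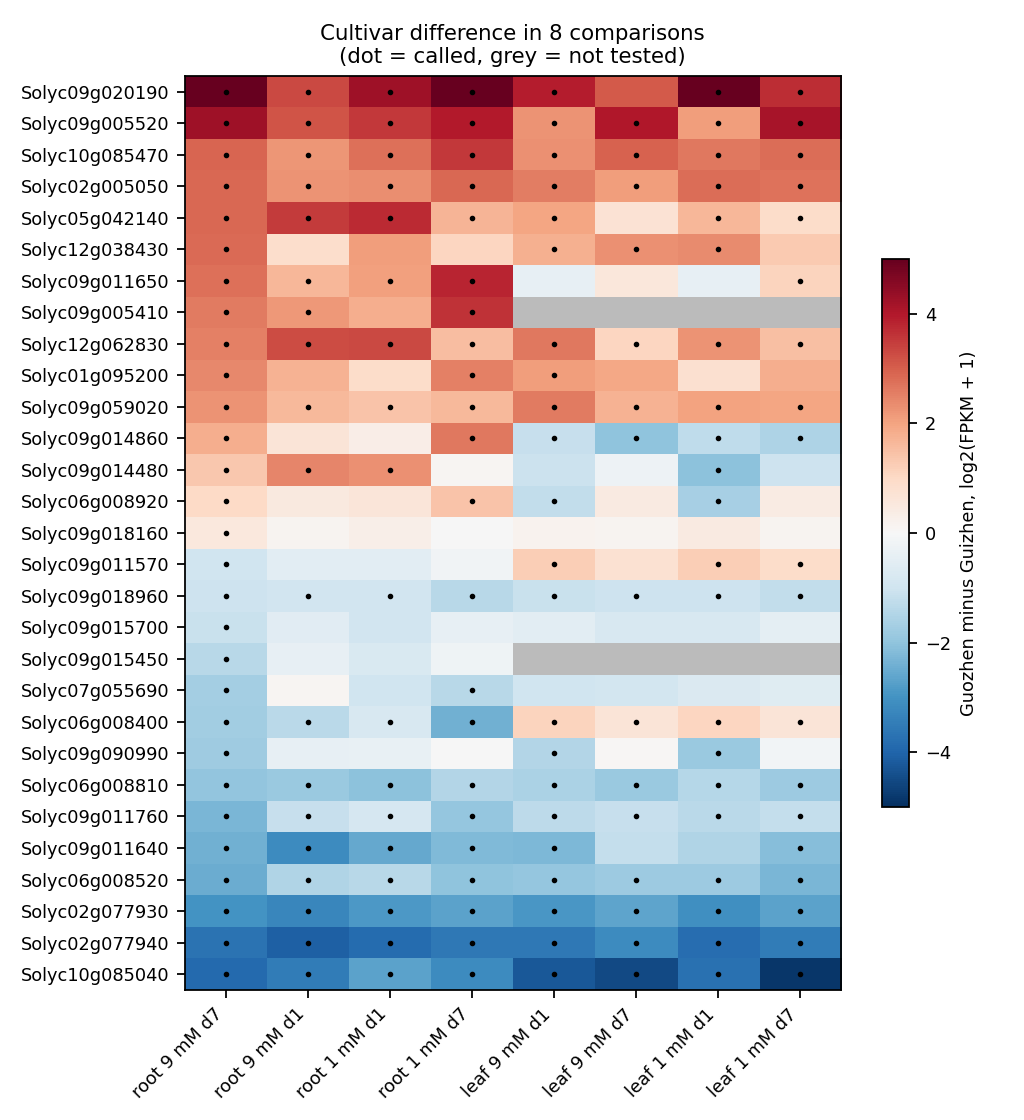
Difference between cultivars, Guozhen minus Guizhen on the log2(FPKM + 1) scale, for named genes (rows) in the 8 settings of organ, nitrogen level and day (columns), with red for higher in Guozhen, blue for lower, a dot where called and grey where not tested in leaf. Most rows keep one colour, while Solyc09g014860, Solyc09g011570 and Solyc06g008400 change colour between root and leaf. Solyc09g014480 and Solyc06g008920 also change colour in at least 1 leaf setting.

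In all 8 settings 28 genes were called in the same direction, 18 higher and 10 lower in Guozhen. Solyc02g077940 is the clearest of the lower ones. In root it had at most 0.237 FPKM in the 12 Guozhen libraries, 8 of them at 0, against 9.55 to 18.2 FPKM in the 12 Guizhen libraries. In leaf it had at most 0.0142 FPKM in Guozhen, against 7.45 to 13.8 FPKM in Guizhen. Solyc10g085040 had 0.0199 to 2.43 FPKM in Guozhen roots and 8.48 to 17.5 FPKM in Guizhen roots. Solyc06g008520, Solyc09g011760 and Solyc09g018960 were also lower in Guozhen in all 8. Solyc09g018960 had a median of 11.1 FPKM over 12 Guozhen root libraries, against 23.99 FPKM over 12 Guizhen root libraries. Among those higher in Guozhen, Solyc09g059020 had 20.5 to 51.8 FPKM in Guozhen roots, against 5.26 to 15.9 FPKM in Guizhen roots. It had 29.8 to 48.4 FPKM in Guozhen leaves, against 5.37 to 11.2 FPKM in Guizhen leaves. Solyc12g062830 was listed at 0 in all 12 Guizhen leaf libraries and in 9 of 12 Guizhen root libraries, and it had 0.634 to 17.5 FPKM in Guozhen roots. Solyc02g005050, Solyc09g005520 and Solyc10g085470 completed the 5 most abundant in this direction. The values of the cultivars did not overlap over all 24 root libraries for 65 of the 189 genes and over all 48 libraries for 32, against 0.421% and 0.161% of all genes tested. Solyc09g020190 was not among the 32: it was listed at 24.8 FPKM in replicate 1 of the Guizhen leaves and at 12.6 FPKM in replicate 1 of the Guizhen roots, both at normal nitrogen on day 1, and at 0.144 FPKM or less in the other 22 Guizhen libraries.

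In leaf 5 genes were called in the opposite direction in at least 1 setting, 2 of them at normal nitrogen on day 7. All 5 are named for that reason, after their values were seen. Solyc09g014860 had 3.02, 3.72 and 2.197 FPKM in Guozhen roots, against 0.0723, 0.315 and 0 FPKM in Guizhen roots, at normal nitrogen on day 7. In leaves of the same day and nitrogen level it had 6.95, 9.83 and 10.9 FPKM in Guozhen, against 43.7, 48.5 and 29.7 FPKM in Guizhen. It was thus higher in Guozhen root and lower in Guozhen leaf. Solyc06g008400 showed the reverse, with 2.09, 2.39 and 1.72 FPKM in Guozhen roots, against 10.3, 9.63 and 7.49 FPKM in Guizhen roots. In leaf it had 0.307, 0.723 and 0.877 FPKM in Guozhen, against 0.0399, 0.0212 and 0.00326 FPKM in Guizhen, all under 1 FPKM. Solyc09g011570 was lower in Guozhen roots as well (34.3, 23.5 and 37.5 FPKM, against 65.5, 59.9 and 63.8 FPKM in Guizhen roots). In leaf it had 0.734, 0.809 and 0.949 FPKM in Guozhen, against 0.144, 0 and 0.108 FPKM in Guizhen. The difference between organs was tested in a fit of all 48 libraries, added after the data were seen. In it 82 of 22117 genes (0.371%) were called, 43 of them among the 189. The 189 were chosen for a difference in root libraries that this fit also uses, which favours calls among them. The 5 genes were likewise chosen for opposite calls in libraries of this fit, so their p-values are not independent of that choice. The difference between organs was called for Solyc09g014860 (3.82 ± 0.41), Solyc06g008400 (-2.38 ± 0.20) and Solyc09g011570 (-1.75 ± 0.28), with adjusted p of 2.3e-07, 2.4e-09 and 3.8e-04 in limma. For Solyc09g014480 (1.61 ± 0.47, adjusted p = 0.190) and Solyc06g008920 (0.54 ± 0.32, adjusted p = 0.846) it was not, and their opposite calls in leaf came from other days or nitrogen levels. The root calls of Solyc09g014480 (1.37) and Solyc06g008920 (1.00) were lost without most single libraries (adjusted p = 0.0876 to 0.196 for Solyc09g014480 without any except Guozhen replicate 3 and Guizhen replicate 1, and 0.0541 to 0.206 for Solyc06g008920 without any). That of Solyc09g011570 was lost without Guozhen replicate 2 (0.0665).

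Tests of whether the difference between cultivars depended on the day or the nitrogen level called few genes, and the counts were unstable. Between day 7 and day 1 in normal nitrogen roots it differed for 19 of 20435 genes (0.093%), and between normal and low nitrogen in day 7 roots for 79 (0.387%). Of the 189 genes, 8 differed between days and 4 between nitrogen levels, 10 in all, of which 2 were newly assembled. The 189 were chosen in libraries that these tests also use, which favours calls among them. With a pseudocount of 0.1 the 19 became 8 and the 79 became 21. The 19 became 9 without day 7 Guozhen replicate 2, 12 without day 1 Guozhen replicate 3 and 9 without day 1 Guizhen replicate 1. Among the normal nitrogen libraries, the 79 became 50, 13 and 10 without Guozhen replicates 1, 2 and 3, and 9 and 39 without Guizhen replicates 2 and 3. Among the low nitrogen libraries, they became 13, 50 and 326 without Guozhen replicates 1, 2 and 3, and 17 and 124 without Guizhen replicates 1 and 3. Solyc09g018590 had 6.70, 2.22 and 1.11 FPKM in Guozhen roots on day 7 and was listed at 0 in the 3 Guizhen roots. On day 1 it had 133, 103 and 79.0 FPKM in Guozhen roots, against 0, 0.0409 and 0 FPKM in Guizhen roots. The cultivars were thus apart on both days, and less so on day 7 (day 7 minus day 1, -4.78, adjusted p = 7.0e-04 in limma). Solyc04g007430 was near absent from every root group except the day 7 roots at normal nitrogen. There it had 0.0828, 0.412 and 0.414 FPKM in Guozhen, against 1.49, 2.21 and 1.97 FPKM in Guizhen, and no other root library exceeded 0.0709 FPKM. Among root groups, Solyc08g008300 was also mainly seen in these, with 0.699, 1.73 and 1.36 FPKM in Guozhen, against 3.58, 3.50 and 3.68 FPKM in Guizhen. Solyc03g114750 and Solyc09g009980 were each higher in Guozhen on day 7 but not on day 1. Solyc03g114750 had 17.71, 21.9 and 24.6 FPKM in Guozhen roots, against 8.85, 9.16 and 6.78 FPKM in Guizhen roots, on day 7, and 0.640 to 1.24 FPKM in Guozhen, against 0.827 to 1.11 FPKM in Guizhen, on day 1. Solyc09g018590 lost its day 7 call without any one library except Guozhen replicate 3 (adjusted p = 0.0580 to 0.0989), and Solyc09g009980 without Guozhen replicate 1 or Guizhen replicate 1 or 3 (0.0722 to 0.0809).

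Newly assembled genes, which carry no locus number, made 31 of the 189 called genes, 21 of them higher in Guozhen, among 564 tested, beside 189 of 20435 (0.925%) over all genes. They are not named here. In the day 7 roots at normal nitrogen 37 genes were called in no other setting. The 31 of the 189 genes not tested in leaf count there as not called. A call missed elsewhere does not show a difference between settings, and only 10 of the 189 had a called difference between days or nitrogen levels. Solyc07g006290 is one of the genes called with a change between days, with 0.625, 0.267 and 0.143 FPKM in Guozhen roots, against 2.46, 1.37 and 1.23 FPKM in Guizhen roots, on day 7. On day 1 it had 0.780, 0.938 and 0.578 FPKM in Guozhen roots, against 0.112, 0.245 and 0.237 FPKM in Guizhen roots, the reverse order at low levels.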

How the data were processed

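The 48 root and leaf libraries of both cultivars came from 1 table of FPKM deposited by the authors. HISAT2 and StringTie were used, per the submitters' processing notes. Versions, genome build and annotation are not given in the sources used here, and the read depth is unknown. Groups were taken from the sample titles. Values were transformed to log2(FPKM + 1), and a gene was kept where 3 or more of the 24 root libraries reached 1 FPKM. A model with 1 mean for each of 8 root groups and a variance trend was fitted (limma 3.58.1, R 4.3.3) with Benjamini-Hochberg adjustment, and was tested on simulated data. Leaf was fitted in the same way. Exact permutation of 3 against 3 libraries cannot go below p = 0.1 and was not used. The members, lists and windows were chosen with earlier results of these data known. Some named genes were taken among called loci with a higher group mean of at least 5 FPKM. These were up to 10 with the largest differences in each direction without overlap, and 3 in each of the 3 windows with the highest share called. Without that limit, all tested nitrogen loci were named, called or not. So were the 5 most abundant loci in each direction called in all 8 comparisons. Others were chosen after their values were seen. Symbols are those of RefSeq (assembly SLM_r2.1), printed for loci preset from general knowledge whose symbol lay on the same chromosome within 7% of its gene order (115 of 172 list loci), a limit set after seeing the data. The table and RefSeq share no identifier. Figures used Python 3.11.15 and matplotlib 3.10.9.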

Additional observations from a re-analysis of the deposited data

Results flagged for a closer look

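For 6 named genes the difference between cultivars in normal nitrogen roots differed between the days (limma, adjusted over all genes). As day 7 minus day 1 on the log2 scale, it was 1.30 for Solyc03g114750 (adjusted p = 0.0391), -1.13 for Solyc04g007430 (0.00525), -1.54 for Solyc07g006290 (0.00867), 1.47 for Solyc09g009980 (0.0400), -1.13 for Solyc09g011760 (0.0202) and -4.78 for Solyc09g018590 (7.0e-04). Leaving out each of the 12 libraries in turn ended none of these calls for Solyc04g007430, Solyc07g006290 and Solyc09g018590. Solyc03g114750 (up to 0.130), Solyc09g009980 (up to 0.130) and Solyc09g011760 (up to 0.0770) lost theirs for most or several libraries. With a pseudocount of 0.1, Solyc03g114750 (0.127), Solyc04g007430 (0.377), Solyc09g009980 (0.0512) and Solyc09g018590 (0.0512) lost theirs. With the replicate block, Solyc03g114750 (0.0536) and Solyc09g011760 (0.0515) lost theirs.

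Between nitrogen levels in day 7 roots, the difference at normal minus that at low nitrogen was -1.12 for Solyc04g007430 (adjusted p = 0.00770), -1.32 for Solyc08g008300 (0.0177) and -1.46 for Solyc09g014610 (0.0485). Solyc09g014610 had 2.57, 2.54 and 1.40 FPKM in Guozhen, against 4.70, 4.98 and 6.42 FPKM in Guizhen, at normal nitrogen. At low nitrogen it had 6.69, 4.40 and 4.03 FPKM in Guozhen, against 2.45, 3.89 and 4.01 FPKM in Guizhen. Its call was lost without any 1 of 9 of the 12 libraries (0.0525 to 0.133), and with the replicate block (0.103). All 3 calls were lost with a pseudocount of 0.1 (0.0807 to 0.112).

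Between organs at normal nitrogen on day 7, root minus leaf was -2.38 for Solyc06g008400 (adjusted p = 2.4e-09), -1.75 for Solyc09g011570 (3.8e-04) and 3.82 for Solyc09g014860 (2.3e-07). These 3 calls were kept in every alternative fit that was run. The genes were chosen for calls in libraries of the same fit, so the p-values are not independent of that choice.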

How the results depend on the processing

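The 189 called genes became 88 (57 higher, 31 lower, 14 on chromosome 6 and 17 on chromosome 9) when only the 6 libraries were fitted, of which 69 were among the 189, and 99 (60 higher, 39 lower, 16 and 26) at an adjusted p below 0.01. Leaving out 1 library of the 6 gave 134 to 174 called genes, 79 to 89 higher, 50 to 88 lower, 17 to 22 on chromosome 6 and 32 to 43 on chromosome 9. The lower genes were 50 without Guozhen replicate 2 and 51 without Guizhen replicate 3, and chromosome 6 held 17 without Guozhen replicate 3 or Guizhen replicate 2. The share higher in Guozhen was 58.7%, and 49.4% without Guozhen replicate 1. A pseudocount of 0.1 gave 174, no filter 243 and median-of-ratios scaling 202 called genes. Whether replicate numbers pair the libraries is not settled here. Same-numbered libraries correlated in their deviations at 0.182, 0.170 and 0.0786, and other pairs at -0.241 to 0.104. Each library correlated best with its own number except Guozhen replicate 3, which correlated best with Guizhen replicate 2. The main fit treats the libraries as unpaired. With the replicate block 147 genes were called, 136 of them among the 189. The 19 genes that differed between days became 8 with a pseudocount of 0.1 and 9 to 19 leaving out 1 library. The 79 that differed between nitrogen levels became 21 with a pseudocount of 0.1, 173 without a filter, 26 with the replicate block and 9 to 326 leaving out 1 library, and the cause was not tested. The 82 that differed between organs became 134 without a filter. No named gene reversed in any setting. Of the named genes, 23 lost the call with only the 6 libraries, 7 with a pseudocount of 0.1 and 9 with the replicate block. Many named genes, such as the nitrogen loci, were never called and could not lose a call. The share lost among called named genes is therefore larger than that among all named genes. FPKM without counts gives no sampling error, so low values are the least certain.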
